A study of Homo sapiens with 4 samples.

Results

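The transcripts described here encode the kinases CDK4 and CDK6, the D-type cyclins that activate them and the RB proteins that they phosphorylate. The 8 genes, CDK4, CDK6, CCND1, CCND2, CCND3, RB1, RBL1 and RBL2, were chosen by name and matched by Ensembl identifier, and all 8 were found among the 20263 genes of the deposited count table. All 8 passed the low-count filter, so the 13744 genes tested include each of them. The cells were MDA-MB-231, an established human breast cancer line that lacks hormone receptors and HER2 amplification. Their RNA was sequenced after a treatment of 24 h, in 2 libraries with RB-BC and 2 libraries with the vehicle DMSO. Both groups were grown with 10% fetal bovine serum and antibiotics. Per the title of the series RB-BC is a derivative of ribociclib, a drug that inhibits CDK4 and CDK6. The treatment protocol in the labels names the agent Rib_CA, no source used here says whether the names are of the same compound, and no dose is stated. Nothing in the labels says that the 2 libraries of a group came from separate cultures, so p-values reflect the spread among these 4 libraries alone, and that spread may be technical.

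D-type cyclins are made in response to growth signals and bind CDK4 or CDK6. The active kinases phosphorylate RB1 and its relatives RBL1 (p107) and RBL2 (p130), which otherwise hold E2F transcription factors in check and keep genes of DNA replication silent. INK4 proteins block CDK4 and CDK6 directly, and CIP/KIP proteins act on several cyclin-dependent kinases.

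Library totals ran from 42752387 to 42786422 counts in RB-BC and from 34774542 to 37754168 in DMSO. Mitochondrially encoded genes took 10.1% and 10.3% of the counts in RB-BC 1 and RB-BC 2, against 8.68% in DMSO 1 and 21.7% in DMSO 2 (95% Wilson interval 21.68% to 21.71%, counting error only). Within a group, the median gene lay 0.14 (RB-BC) or 0.27 (DMSO) log2 units apart between libraries. The 6 genes expected in this line (VIM, CD44, EGFR, AXL, PLAU, TGFBI) summed to between 8249 and 8699 CPM in RB-BC and between 6428 and 7919 CPM in DMSO. Of 5 luminal and hormone receptor genes expected to be low, the epithelial cadherin CDH1 had at most 2 counts in a library and KRT20 had none. GATA3 was not absent, with 8.71 and 7.89 CPM in RB-BC 1 and RB-BC 2, against 8.98 CPM in DMSO 1 and 21.4 CPM in DMSO 2. PGR had 40 and 58 counts in RB-BC 1 and RB-BC 2, and 51 and 58 in DMSO 1 and DMSO 2. ESR1 had 6 and 12 counts in RB-BC 1 and RB-BC 2, and 23 and 7 in DMSO 1 and DMSO 2. Among markers of blood, endothelium, liver and fat, CD3E and ADIPOQ had no count in any library, and the markers together summed to between 2.69 and 3.04 CPM in RB-BC and between 1.25 and 1.73 CPM in DMSO. Their part in the results was not tested.

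After RB-BC, RBL1 was lower and CCND2 and CDK4 were higher, while the other 5 genes did not pass the test. By edgeR's quasi-likelihood test, with Benjamini-Hochberg adjustment over all genes and a threshold of 0.05, 3 of the 8 passed, 2 upward and 1 downward. Over all 13744 genes tested 16.1% passed, 8.58% higher and 7.53% lower in RB-BC. The RB-BC and DMSO libraries did not overlap in TMM-scaled CPM for 7 of the 8 genes, and for 65.2% of all genes tested. The median log2 fold change of the 8 was −0.21, against 0.00 for all genes tested.

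**Figure D1:**
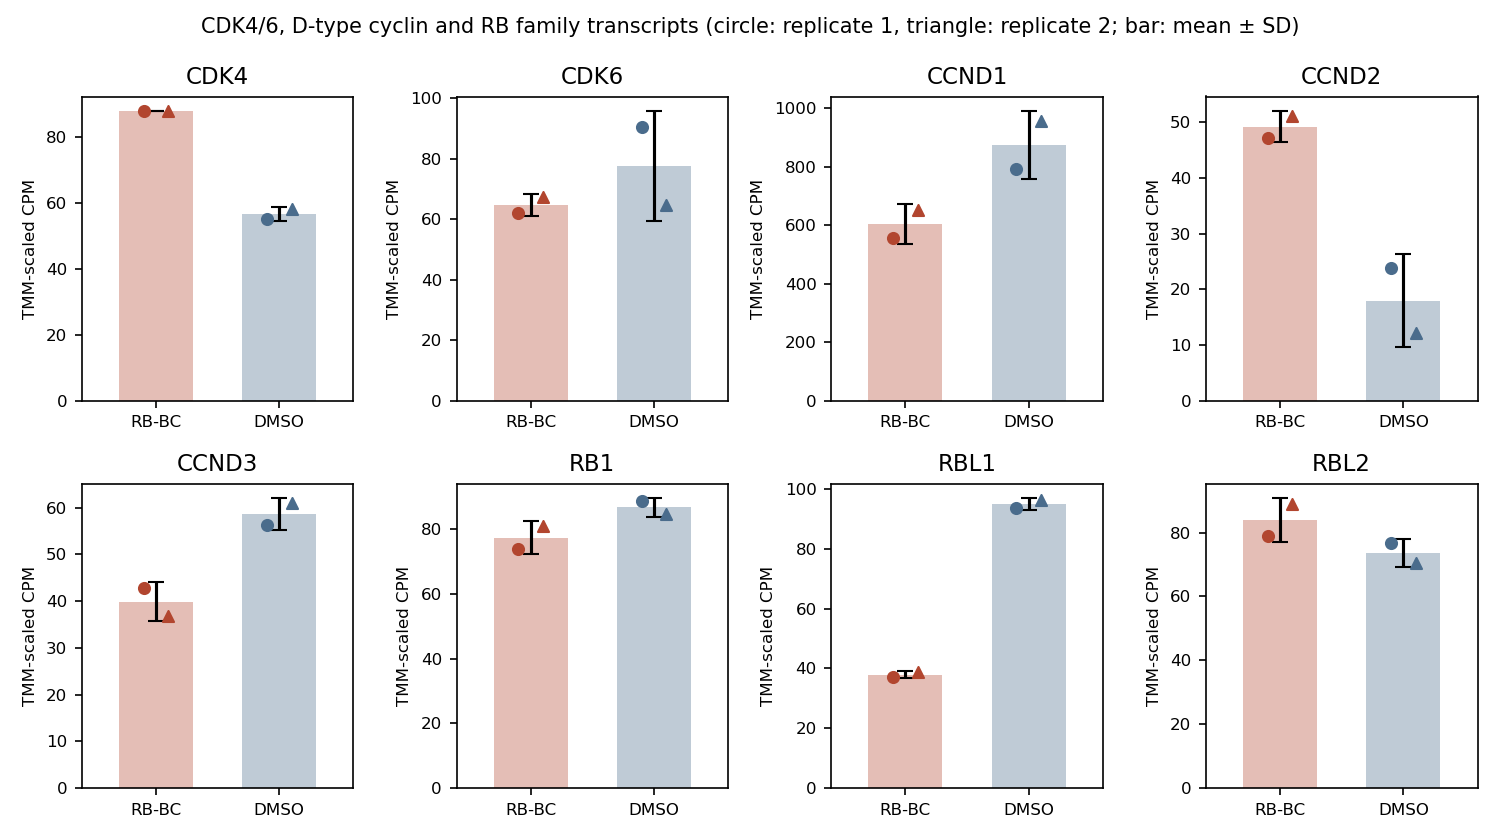
TMM-scaled CPM, a read count scaled for library size (y axis, from 0), of the 8 genes in RB-BC and DMSO libraries, with circles for replicate 1, triangles for replicate 2, and bars for the mean ± SD of 2 libraries. RBL1 stood at 37.1 and 38.7 CPM in RB-BC, below 93.5 and 96.4 CPM in DMSO, while the DMSO libraries lay apart for CDK6 and CCND2.

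Among the kinase subunits, CDK4 had 87.6 CPM in RB-BC 1 and 87.7 CPM in RB-BC 2, against 55.1 CPM in DMSO 1 and 58.1 CPM in DMSO 2. The groups did not overlap, and within each group the libraries lay close together. The log2 fold change, RB-BC over DMSO, was 0.63 ± 0.13 (SE; edgeR adjusted p = 0.0310), a 1.55-fold higher level. The call was lost with library totals alone as the scaling (0.69, edgeR adjusted p = 0.0661), with the replicate number as a block (0.63, edgeR adjusted p = 0.0555) and with either RB-BC library left out (0.64 when RB-BC 1 was left out, with an edgeR adjusted p = 0.244, and 0.63 when RB-BC 2 was, with 0.209). Of the annotated exon bases of CDK4, 43.2% overlap TSPAN31, a tetraspanin gene on the opposite strand. No source used here states the strand setting of the counting, so reads there cannot be assigned with certainty. TSPAN31 itself, looked up after its overlap was seen, had 10.8 ± 0.44 CPM in RB-BC and 9.35 ± 0.11 CPM in DMSO (SD, n = 2 each), a log2 fold change of 0.21 ± 0.17 (edgeR adjusted p = 0.417).

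CDK6, the other kinase, had 62.1 and 67.4 CPM in RB-BC 1 and RB-BC 2, against 90.5 CPM in DMSO 1 and 64.8 CPM in DMSO 2. The groups overlapped, since DMSO 2 lay between the RB-BC libraries. Its log2 fold change was −0.26 ± 0.19 (edgeR adjusted p = 0.373), with a 95% interval from −0.74 to 0.21. Without DMSO 2, which has the large share of mitochondrial counts, it was −0.48 and passed (edgeR adjusted p = 0.0446). Without DMSO 1 it was −0.000575 (edgeR adjusted p = 0.997). The part of the mitochondrial share in this was not tested.

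Counts of both kinases from the same library can be set against each other without any scaling between libraries. The log2 ratio of CDK4 to CDK6 counts was 0.50 and 0.38 in the RB-BC libraries, against −0.72 and −0.16 in the DMSO libraries. The ratio was thus 1.84-fold higher in RB-BC, and the groups did not overlap. An exact two-sided permutation test of 2 against 2 libraries gave p = 0.333, the smallest it can give. Per kilobase of annotated exon, CDK4 made up 84.0% ± 0.78 of the summed level of both kinases in RB-BC and 73.9% ± 5.25 in DMSO (SD, n = 2 each).

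RefSeq promoter windows (GRCh38.p14), from 250 bases before to 50 after a transcript start, were found for 6 of the 8 genes, all but CCND1 and CCND2. They were searched on both strands for the E-box word CACGTG, which MYC and related factors bind, for the CHR word TTTGAA, an element of cell cycle genes, and for an E2F word in any of the forms TTTCCCGC, TTTCGCGC, TTTGCCGC and TTTGGCGC. The window of CDK4 held 3 E-box words, more than any other window of the 6 genes. It is shown because this window belongs to the kinase gene that rose, and the 250 bases before the start (chr12:57752311-57752560, minus strand) are printed with the E-box words in capitals.
CDK4 promoter: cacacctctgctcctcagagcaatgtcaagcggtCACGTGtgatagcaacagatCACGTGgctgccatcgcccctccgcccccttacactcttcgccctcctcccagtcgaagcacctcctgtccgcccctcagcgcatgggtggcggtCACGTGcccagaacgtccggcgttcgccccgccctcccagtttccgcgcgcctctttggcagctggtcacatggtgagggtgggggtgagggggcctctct
The words begin at bases 35, 55 and 150 of this stretch, counted from its 5′ end. Of 35116 windows of the same length over all genes, 7.26% held an E-box word. The CDK6 windows held 1, located after the start. A match describes letters only, and binding was not measured. Of tested genes with an E-box word in a window 8.32% were higher in RB-BC, against 8.26% of those without one.

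The D-type cyclins were dominated by CCND1, which encodes cyclin D1. It had 556 and 653 CPM in RB-BC 1 and RB-BC 2, against 793 and 957 CPM in DMSO 1 and DMSO 2. The groups did not overlap, but the libraries of each group lay 0.23 (RB-BC) and 0.27 (DMSO) apart on the log2 scale. The log2 fold change of CCND1 was −0.53 ± 0.18 and did not pass (edgeR adjusted p = 0.0932), with a 95% interval from −0.97 to −0.10 before adjustment. DESeq2 called it lower (adjusted p = 0.0290), as did edgeR once DMSO 1 was left out (−0.66, adjusted p = 0.0330). LTO1, which overlaps 10.3% of the exon bases of CCND1 on the opposite strand, was at 0.49 ± 0.17 (edgeR adjusted p = 0.106).

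CCND3, which encodes cyclin D3, had 42.9 and 36.9 CPM in RB-BC 1 and RB-BC 2, against 56.3 and 61.1 CPM in DMSO 1 and DMSO 2. Every RB-BC library was below both DMSO libraries. Its log2 fold change was −0.56 ± 0.15, just outside the threshold (edgeR adjusted p = 0.0560). CCND3 passed with DESeq2 (adjusted p = 0.0204), and also by edgeR when DMSO 1 was left out (−0.61, adjusted p = 0.0414).

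CCND2, which encodes cyclin D2, was higher in RB-BC. Of its annotated exon bases 13.8% overlap AC008012.1, a protein-coding gene that the count table lacks. That gene lies on the same strand, so no strand setting could separate reads there. CCND2 had 47.3 and 51.2 CPM in RB-BC 1 and RB-BC 2, against 23.9 CPM in DMSO 1 and 12.1 CPM in DMSO 2. The groups did not overlap, and the DMSO libraries lay 0.98 apart on the log2 scale, with the lower value in DMSO 2. The log2 fold change was 1.45 ± 0.32 (edgeR adjusted p = 0.0333), a 2.73-fold higher level, and it was 2.02 without DMSO 1 and 1.04 without DMSO 2, whose mitochondrial share is large. The call was kept in both of those fits (edgeR adjusted p = 0.0081 and 0.0110), and was lost when RB-BC 1 was left out (1.51, adjusted p = 0.103 by edgeR), when RB-BC 2 was left out (1.39, adjusted p = 0.0794 by edgeR) and with library totals alone (1.46, adjusted p = 0.0616 by edgeR).

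The 3 D-type cyclins summed to 139 ± 13.8 CPM per kb in RB-BC and to 194 ± 23.4 CPM per kb in DMSO (SD, n = 2 each). CCND1 made up 90.0% ± 1.23 of that sum in RB-BC and 93.4% ± 1.09 in DMSO. CCND2 made up 4.96% ± 0.21 in RB-BC and 1.34% ± 0.76 in DMSO, and CCND3 made up 5.00% ± 1.02 and 5.24% ± 0.33 in the same groups. The rise of CCND2 thus left cyclin D1 as the main D-type cyclin transcript in every library. The log2 ratio of CCND2 to CCND3 counts was 0.14 and 0.47 in RB-BC, against −1.24 and −2.33 in DMSO. CCND2 counts therefore stood above CCND3 counts in both RB-BC libraries and below them in both DMSO libraries. The ratio of CCND1 to CCND3 showed no such shift, at log2 values of 3.70 and 4.14 in RB-BC against 3.82 and 3.97 in DMSO, with overlapping groups (exact two-sided permutation p = 1).

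**Figure D2:**
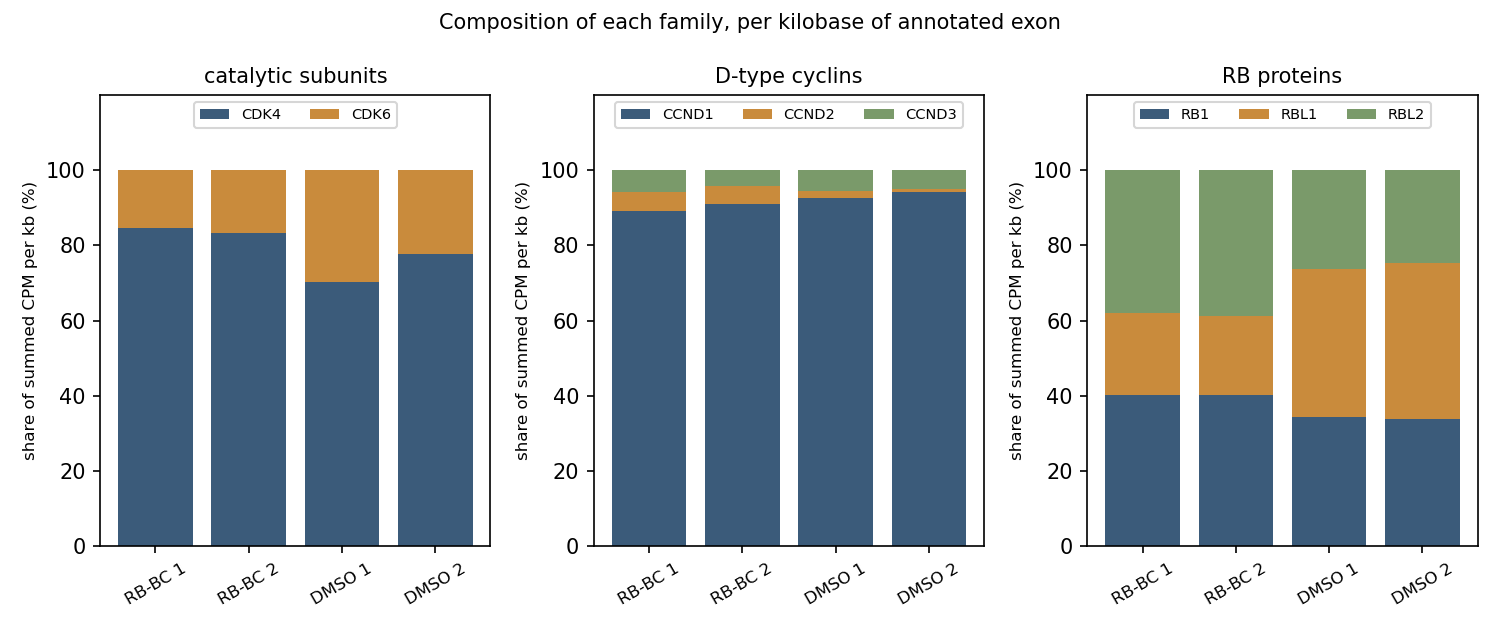
Share (y axis, %) of each gene in the summed TMM-scaled CPM per kilobase of annotated exon of its family, for kinase subunits, D-type cyclins and RB proteins, in each of the 4 libraries. RBL1 took 21.9% and 20.8% of the RB protein sum in RB-BC 1 and RB-BC 2, against 39.3% and 41.6% in DMSO 1 and DMSO 2.

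Among the RB proteins, RBL1 carried the lowest adjusted p of the 8 genes and ranked 108th by p among all genes tested. It had 37.1 and 38.7 CPM in RB-BC 1 and RB-BC 2, against 93.5 and 96.4 CPM in DMSO 1 and DMSO 2. The groups lay far apart relative to the spread within each. RBL1 fell by 1.33 on the log2 scale (SE 0.13, edgeR adjusted p = 0.00779), so its level in DMSO was 2.51-fold that in RB-BC. Leaving out RB-BC 2 (−1.35, edgeR adjusted p = 0.0392), DMSO 1 (−1.35) or DMSO 2 (−1.30) kept the call, and leaving out RB-BC 1 lost it (−1.29, edgeR adjusted p = 0.0713). In bulk libraries a lower level per cell and a smaller share of cells in the cycle phases that express the gene cannot be told apart.

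RB1, which encodes the retinoblastoma protein, had 73.8 and 81.2 CPM in RB-BC 1 and RB-BC 2, against 88.9 and 84.8 CPM in DMSO 1 and DMSO 2. The groups lay next to each other without overlap. Its log2 fold change was −0.16 ± 0.14 (edgeR adjusted p = 0.433), with a 95% interval from −0.50 to 0.17. RBL2 leaned the other way, with 79.0 and 88.8 CPM in RB-BC 1 and RB-BC 2, against 76.7 and 70.4 CPM in DMSO 1 and DMSO 2. The log2 fold change of RBL2 was 0.19 ± 0.14 (edgeR adjusted p = 0.385), with a 95% interval from −0.16 to 0.54. Of the exon bases of RBL2, 8.33% overlap AKTIP on the opposite strand, which was at −0.11 ± 0.24 (edgeR adjusted p = 0.777).

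The balance of the RB proteins differed between the groups in every library. The log2 ratio of RBL1 to RBL2 counts was −1.09 and −1.20 in RB-BC, against 0.29 and 0.45 in DMSO. RBL1 counts were thus below RBL2 counts in both RB-BC libraries and above them in both DMSO libraries, and the log2 ratio was lower by a mean difference of −1.52. The log2 ratio of RB1 to RBL1 counts was 0.99 and 1.07 in RB-BC, against −0.07 and −0.18 in DMSO, and that of RB1 to RBL2 was −0.10 and −0.13 in RB-BC, against 0.21 and 0.27 in DMSO. Of 7 ratios computed between members of a family, 6 did not overlap between the groups. Each of these had an exact two-sided permutation p = 0.333, the smallest that 4 libraries allow, so no adjustment over the 7 could make one pass. Ratios within a family share genes and are not separate observations. Ratios of other gene pairs were not computed, and 65.2% of single genes tested did not overlap either. Per kilobase, RBL2 made up 38.4% ± 0.66 of the RB protein sum in RB-BC and 25.5% ± 1.08 in DMSO, while the sum itself was 29.8 ± 1.94 CPM per kb in RB-BC and 39.4 ± 0.71 CPM per kb in DMSO (SD, n = 2 each).

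Among the windows searched, only that of RBL1 held an E2F word, and it held 2 of them close to the start. For RB1 only 1 window was listed (chr13:48476200-48476499, plus strand). Starts without a listed window were not searched, so the lack of a word there does not cover other starts of RB1. RBL1 is known as a target of E2F factors. The 250 bases before its start (chr20:37095998-37096247, minus strand) are shown with the E2F words in capitals, and those of RBL2 (chr16:53434221-53434470, plus strand, the first of 2 listed starts) are shown beside them as the relative without such a word.
RBL1 promoter: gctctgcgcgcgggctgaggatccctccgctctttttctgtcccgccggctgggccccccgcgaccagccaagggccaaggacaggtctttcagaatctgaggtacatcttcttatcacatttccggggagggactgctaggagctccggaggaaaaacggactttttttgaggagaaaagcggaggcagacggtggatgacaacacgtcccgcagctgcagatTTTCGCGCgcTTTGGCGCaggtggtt
RBL2 promoter: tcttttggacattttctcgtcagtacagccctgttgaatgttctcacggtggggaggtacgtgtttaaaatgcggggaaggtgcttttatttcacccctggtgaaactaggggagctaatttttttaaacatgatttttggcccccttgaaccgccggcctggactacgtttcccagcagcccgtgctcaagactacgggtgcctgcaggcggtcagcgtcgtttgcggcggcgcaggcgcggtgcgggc
The E2F words of RBL1 begin 26 and 16 bases before the start, as TTTCGCGC and TTTGGCGC. Of all 35116 windows 3.31% held an E2F word. The RBL2 window held a CHR word, located after the start, which 15.2% of all windows held. No binding was measured, and the absence of these letters from a window says nothing of the factor.

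**Figure D3:**
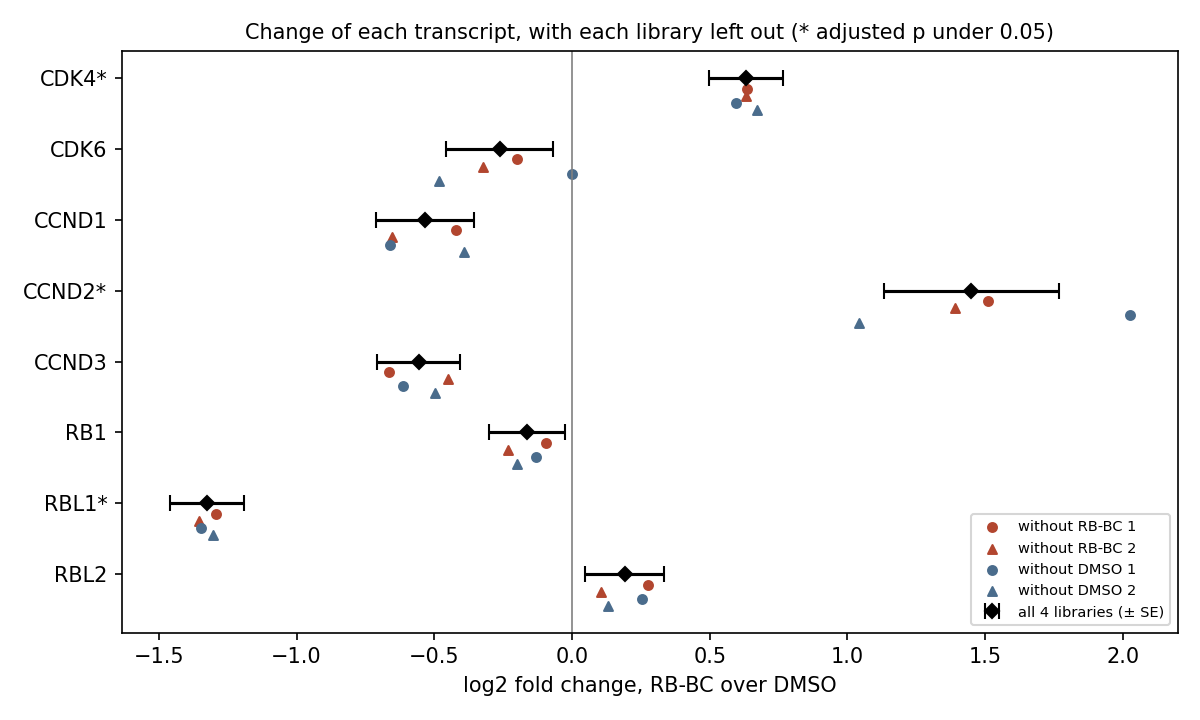
Log2 fold change (x axis, RB-BC over DMSO) of each gene with all 4 libraries (black diamond, bar ± SE) and with each library left out in turn (coloured symbols). RBL1 stayed between −1.35 and −1.29 and CDK4 between 0.60 and 0.67, while CCND2 ran from 1.04 to 2.02 with the DMSO library used.

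The count of members that passed depended on the libraries. Without RB-BC 1, 0 of the 8 passed edgeR's test and 1.47% of all genes did, although 4 of the 8 had an unadjusted p under 0.05. DESeq2 and limma-voom were not run on that subset. Without RB-BC 2, 1 of the 8 passed (RBL1) and 3.23% of all genes did. Without DMSO 1, 5 passed, with CCND1 and CCND3 added as lower, and 23.1% of all genes passed. Without DMSO 2, 4 passed, with CDK6 added as lower, and 26% of all genes passed. With all 4 libraries, library totals alone left 1 member past the threshold (RBL1; 8.77% of all genes), the replicate block left 2 (15.4% of all genes) and DESeq2 gave 5 (23.2% of all genes). In the fits with a library left out the pair of libraries left in the other group sets the spread. No member changed sign in any of the 96 alternative fits of a member.

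Compared per length, CCND1 had the highest level of the 8 genes in every library, at 115 and 135 CPM per kb in RB-BC 1 and RB-BC 2 and at 164 and 198 CPM per kb in DMSO 1 and DMSO 2. CDK4 came next in both groups, at 27.7 CPM per kb in RB-BC and 17.9 CPM per kb in DMSO. In RB-BC the order after CDK4 was RB1 (11.4 and 12.6 CPM per kb), RBL2 (mean 11.5), CCND3 (6.88), CCND2 (6.88), RBL1 (6.36) and CDK6 (5.28). There RB1 and RBL2 overlapped, as did CCND3 with both CCND2 and RBL1. In DMSO the order after CDK4 was RBL1 (15.9), RB1 (13.5), CCND3 (10.1), RBL2 (10.0), CDK6 (6.34) and CCND2 (2.52), and only CCND3 and RBL2 overlapped among neighbours. These lengths come from all annotated exons of a gene, so a gene with long rare transcripts has a level per length that is too low.

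By the distance between profiles of log2 CPM over the 4 libraries, the nearest of 12121 other genes to RBL1 were PDGFB (log2 fold change −1.37), BRI3BP (−1.36) and B3GALT5 (−1.28). The nearest to CCND2 were SPRED3 (1.47, edgeR adjusted p = 0.0359), DDIT4L and PMP22 (1.29), of which the last 2 did not pass. These genes share with CCND2 the lower value in DMSO 2 than in DMSO 1, as with 8.65 CPM against 17.7 CPM for SPRED3. They were picked by likeness over these same libraries, so this shared gap follows from the choice. The nearest to CDK4 were HSCB (0.64), MARK4 (0.64) and SLC31A1 (0.61), of which HSCB did not pass (edgeR adjusted p = 0.0843). With 4 libraries such likeness is a description of these libraries only.

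Partner genes of the axis were taken from 11 lists with 121 genes, of which all but 3 were tested. Among these 6 rose and 39 fell, or 38.1% called against 16.1% of all genes tested, with a median log2 fold change of −0.25 against 0.00 over all genes. Without RB-BC 1 there were 7 of them that passed, where 1.47% of all genes did, and without RB-BC 2 there were 13, where 3.23% of all genes did. The lists were written with earlier results of these data known, so their counts are not independent evidence of a direction.

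Of 5 tested genes of kinase inhibitors 2 rose and 1 fell, beside 16.1% called over all genes tested. CDKN1A, which encodes p21, had a mean of 186 ± 30.4 CPM in RB-BC and 26.2 ± 10.5 CPM in DMSO (SD, n = 2 each; log2 fold change 2.83 ± 0.31, edgeR adjusted p = 0.00853). CDKN1C, which encodes p57, rose by 1.06 (edgeR adjusted p = 0.0340), and CDKN2C, the INK4 gene of p18, fell by 1.33 (edgeR adjusted p = 0.00945). With RB-BC 1 or RB-BC 2 left out only CDKN1A passed, and CDKN1C also lost its call when scaled by library totals (edgeR adjusted p = 0.0735). CDKN1B, which encodes p27, was at 0.09 ± 0.17 and CDKN2D at 0.09 ± 0.20, and neither passed. CDKN2A and CDKN2B, which are known to be deleted in this line, had no count in any library, which allows up to 0.0895 CPM in a library (3 counts).

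Of 20 E2F target genes of the G1/S transition, 19 fell and 0 rose by edgeR's test (median −1.18). All 6 genes of cyclin E, cyclin A and CDK2 fell too (median −0.98), with CCNE2 at −2.83, CCNA2 at −1.09, CCNA1 at −0.76 and CDC25A at −1.47. Over all genes tested 7.53% fell and 8.58% rose, to set beside each list here. With library totals alone, where 8.77% of all genes passed, 15 of the 20 and 2 of the 6 fell. CCNE1, CCNE2 and CDC25A are members of both lists. Without RB-BC 1, where 1.47% of all genes passed, the counts that fell were 4 of 20 and 1 of 6, and without RB-BC 2, where 3.23% passed, they were 8 and 1. Of 10 E2F and DP genes 5 fell, among them E2F8 (−2.34), E2F2 (−2.98), E2F3 (−1.21) and E2F1 (−1.08). In the same list 1 rose, E2F5 (0.89, edgeR adjusted p = 0.0475). Of 9 genes of the DREAM and MuvB complexes and of factors that join or regulate them 5 fell, with MYBL1 at −1.22, FOXM1 at −0.97, MYBL2 at −1.24 and RBBP4 at −0.67. Of 12 chromatin factors that bind RB proteins 4 fell, with RBBP8 at −1.28, DNMT1 at −1.32, SUV39H1 at −0.99 and RBBP7 at −0.58. With library totals alone 5 E2F and DP genes, 3 DREAM and MuvB genes and 3 of these chromatin factors fell. Among genes of these 3 lists that did not pass with TMM scaling, E2F7 (0.25), TFDP2 (0.02), LIN37 (0.25), DYRK1A (0.49) and ARID4A (0.35) had values above 0. With RB-BC 1 left out 2, 0 and 0 genes of these lists fell, with RB-BC 2 left out 2, 0 and 1 fell, and 0 rose in both fits.

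**Figure D4:**
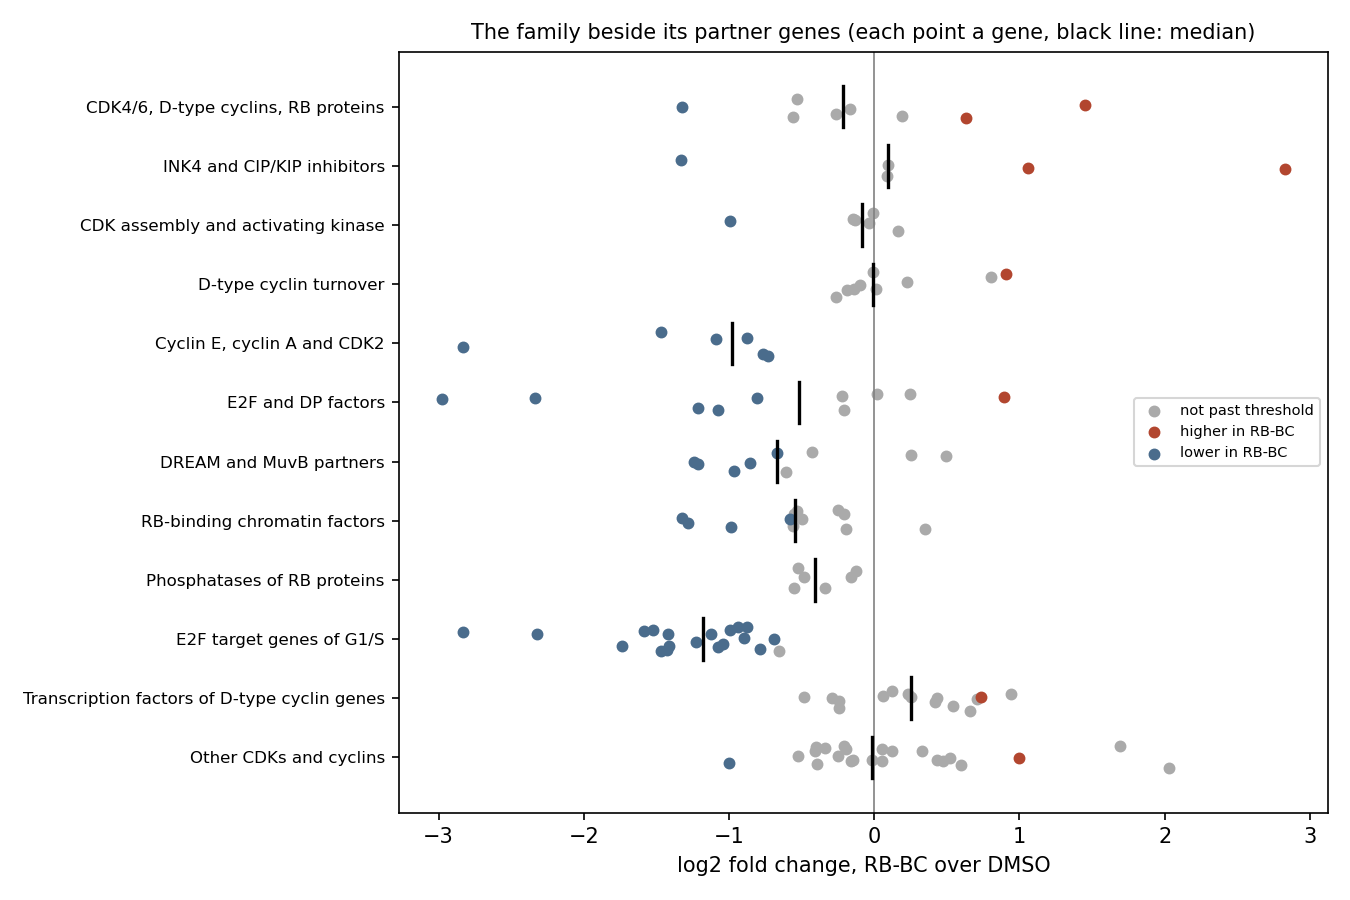
Log2 fold change (x axis, RB-BC over DMSO) of the 8 genes and of the tested genes of 11 partner lists, coloured by call, with a black line at each median. Points of the E2F target and cyclin E lists lie left of 0, while the assembly, turnover and other CDK lists have medians between −0.08 and −0.01.

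The remaining lists cover kinase assembly, D-type cyclin turnover, transcription factors of D-type cyclin genes, other CDKs and cyclins, and phosphatases of RB proteins. In them the share called ran from 0% to 16.7%, against 16.1% of all genes tested. The kinase inhibitors described above, with 60% called, are not in this range. Of 6 genes that assemble or activate the kinases, HSP90AA1, a chaperone of kinases, fell (−0.99, edgeR adjusted p = 0.0311) and the other 5 did not pass. HSP90AA1 missed the threshold when only library totals were used for scaling (edgeR adjusted p = 0.0604) and in both fits that lacked an RB-BC library. Of 9 tested genes of D-type cyclin turnover, FBXO31, which encodes an F-box protein that targets cyclin D1, rose (0.90, edgeR adjusted p = 0.0485), a call lost with library totals alone, with limma-voom and with either DMSO library or RB-BC 1 left out, where the value without RB-BC 1 was 0.57. Of 15 transcription factor genes linked to D-type cyclin genes, FOXO3 rose (0.74, edgeR adjusted p = 0.0316), and 0 of the 15 passed in the fits that lacked RB-BC 1 or RB-BC 2. In that list 1 rose and 2 fell without DMSO 1 (23.1% of all genes called), and 7 rose and 1 fell without DMSO 2 (26% of all genes called). Of 23 other CDK and cyclin genes, CCNG2 rose (0.99) and CCNF fell (−0.999). Among these 23, 3 rose and 4 fell without DMSO 1, 6 rose and 2 fell without DMSO 2, and 0 passed without RB-BC 1 or without RB-BC 2. Of 6 phosphatase genes whose products act on RB proteins, 0 passed edgeR's test, 2 had an unadjusted p under 0.05, 1 passed DESeq2, 0 passed limma-voom, and without DMSO 2 edgeR called 2 lower. The nearest to passing were PPP2CA (−0.53, edgeR adjusted p = 0.0748) and PPP2R2A (−0.49, edgeR adjusted p = 0.101).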

How the data were processed

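RNA was sequenced in 4 libraries, 2 per group, which an mRNA kit made from 1.4 µg of total RNA, per the labels' protocols. The values deposited by the authors are raw read counts per Ensembl gene, whole numbers without visible normalization. How reads were aligned and counted, with which annotation and strand setting, is not stated. The submitters' processing notes name GRCm38 and mm10, both mouse builds, whereas the identifiers are human, so no coordinates of counted genes are printed. Promoter windows come from RefSeq with their own build and were matched by symbol. Libraries of a group were not duplicates of each other, since a chi-square statistic over genes divided by its degrees of freedom was 35.4 for RB-BC and 222 for DMSO, where sampling noise alone gives about 1.

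Genes were kept by filterByExpr in edgeR 4.0.16 (minimum count 10, minimum total 15, R 4.3.3), scaled by TMM and compared by a two-sided quasi-likelihood test with Benjamini-Hochberg adjustment. The SE is the log2 fold change divided by the root of its F statistic. CPM per kb used the exon length of GENCODE release 29. On simulated counts from these libraries the test recovered 0% of 50 genes at 1.5-fold, 30% of 50 at 2-fold and 98% of 50 at 4-fold, with 20 false calls among 13581 genes. Alternatives were RLE factors, library totals alone, DESeq2 1.42.0, limma-voom (limma 3.58.1), no filter, a filter at a mean of 50 counts, the replicate block, mitochondrially encoded genes removed, and each library left out. Named genes were the 8 members, up to 4 genes past the threshold in each list (or the 2 with the smallest p), all INK4 and CIP/KIP genes, and the 3 nearest profiles (prior count 2) of each member that passed. Members and lists were chosen with earlier results of these data known. Overlapping genes were looked up later.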

Additional observations from a re-analysis of the deposited data

How the results depend on the processing

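With library totals alone, 1205 genes passed against 2214, of which 790 were higher (1179 with TMM) and 415 lower (1035 with TMM). Under that scaling 1 member passed against 3, and CDK4 (0.69) and CCND2 (1.46) lost their calls. With DESeq2 5 members passed, as CCND1 (−0.54) and CCND3 (−0.56) gained calls. With the replicate number as a block CDK4 was at 0.63 and lost its call, 2114 genes passed, and the other 7 members kept their side of the threshold. Nothing in the labels says that the numbers pair libraries, and deviations of same-numbered libraries from their group means correlated at −0.0796 over 12122 genes.

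With each library left out, genes called ran from 205 (without RB-BC 1) to 3648 (without DMSO 2), members called from 0 to 5 and partner genes called from 7 to 63. Log2 fold changes ran from 0.60 to 0.67 for CDK4, from −0.48 to −0.000575 for CDK6, from −0.66 to −0.39 for CCND1, from 1.04 to 2.02 for CCND2, from −0.67 to −0.45 for CCND3, from −0.23 to −0.09 for RB1, from −1.35 to −1.29 for RBL1 and from 0.11 to 0.28 for RBL2. The difference in log2 ratio ran from 0.60 to 1.16 for CDK4 to CDK6, from −2.69 to −1.44 for CCND1 to CCND2, from 1.54 to 2.64 for CCND2 to CCND3, from −0.20 to 0.25 for CCND1 to CCND3, from 1.10 to 1.22 for RB1 to RBL1, from −0.38 to −0.33 for RB1 to RBL2 and from −1.60 to −1.43 for RBL1 to RBL2. Fits with fewer libraries have fewer degrees of freedom, and the cause of the other changes was not tested. Of 96 alternative fits of a member, 83 kept the side of the threshold, 8 lost a call and 5 gained one. Of 480 such fits of 40 other named genes, 402 kept it, 66 lost a call, 8 gained one and 4 changed sign. With mitochondrially encoded genes removed and all 4 libraries kept, all 40 kept their sign and their side of the threshold. The sign changes were in CDKN1B (from −0.0579 to 0.236 with a library left out, −0.0232 without DMSO 2 and −0.0579 without RB-BC 2) and CDKN2D (from −0.0873 to 0.284, −0.0873 without DMSO 2 and −0.0385 without RB-BC 1), neither of which passed.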

Other observations

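Tested genes with a RefSeq promoter window were split by the 3 words searched, as a description without a test. Of 707 genes with an E2F word in a window, 16.3% were lower and 6.22% higher in RB-BC, against 7.1% lower and 8.41% higher of the 10252 genes without one. RBL1 is among the 115 genes with an E2F word that fell. Of 1346 genes with an E-box word, 8.32% were higher and 8.02% lower, against 8.26% and 7.65% of the 9613 genes without one. CDK4 is among the 112 genes with an E-box word that rose. Whether any of these words bears on a change was not tested. Of 1521 genes with a CHR word, 6.84% were higher and 11.5% lower, against 8.5% and 7.08% of the 9438 genes without one.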
